A study of Mus musculus with 16 samples.

Results

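The comparison described here set tumours of the mouse breast cancer line E0771 against tumours of the mouse colorectal cancer line MC38, in mice whose tumours were labelled normoxic. Members were taken by their labels: 5 normoxic E0771 tumours (mice 4, 17, 38, 65 and 71) and 4 normoxic MC38 tumours (mice 4, 7, 10 and 21), 9 of the 16 tumours of the series. In both lines 500000 cells had been implanted with matrigel in the right shoulder, immunotherapy against PD-1 and CTLA-4 had been given to every mouse, and each tumour was excised after imaging on day 5 of treatment. The remaining 3 E0771 tumours (mice 12, 22 and 55) and 4 MC38 tumours (mice 12, 14, 17 and 25) were treated alike and carried the label hypoxic; they serve below as a second, separate set of tumours for the same comparison of lines. Normoxic and hypoxic are the labels' classes in a study that imaged oxygen-poor tissue by PET with the tracer 18F-FMISO. Each line is 1 cell line, so a difference between the groups is one between these tumours and not between breast and colorectal cancer, and the strain, sex and age of the mice were not among the labels used. No tumour of a mouse without immunotherapy was analysed here.

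PD-1 and CTLA-4 are receptors that restrain T cells, and antibodies against them release that restraint. How a tumour responds depends on what its cells secrete and display as well as on the immune cells it already holds. Tumour cells make chemokines that call in neutrophils, macrophages or T cells, enzymes such as cyclooxygenase 2 and indoleamine dioxygenase that dampen T cells, and adhesion molecules that tie the cell to the matrix. A piece of tumour contains cancer cells, leukocytes, vessels and fibroblasts together, and RNA of the whole piece was measured here on a NanoString panel for mouse cancer immunology (PanCancer Immune), where barcoded probes are counted molecule by molecule for a fixed set of genes. Values are the deposited normalized signal, a count multiplied by 1 factor per tumour set on housekeeping genes. Values for single tumours follow the order of mice given above, and every difference is E0771 minus MC38 on the scale log2(value + 1) with its standard error.

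Normoxic E0771 tumours had less Spp1 (osteopontin), Il1rl1 (the IL-33 receptor) and Cxcl10 RNA than normoxic MC38 tumours and more Itga6 (an integrin chain), Cd9 and Col4a1 RNA, while the lists of pan-leukocyte, T cell and general macrophage genes held no gene that passed. Of 744 genes tested, 92 passed at an adjusted p under 0.05 (12.4%; limma), of which 85 were lower in E0771 (11.4% of the genes tested) and 7 higher (0.941%). The 7 genes that also passed in each of the 9 fits that left out 1 tumour were Spp1, Il1rl1, Lcn2, Vegfc, Lif, Ptgs2 and Ido1, all lower in E0771. The genes that were higher in E0771 were Itga6, Cd9, Clu, Col4a1, Raet1, Nt5e and Bcl2l1. The median gene was lower in E0771 by -0.53, and 76.5% of genes had a negative difference. Centring each tumour on its median gene brought this median to -0.16 and gave 91 calls, 11 higher and 80 lower, so a difference is read below against the median gene as well as against 0. Centring on the pan-leukocyte genes gave 21 calls, all lower: none of the 7 higher genes passed (adjusted p = 0.0850 to 0.203), nor did Ido1 (0.0653).

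Depth overlapped between the lines. The estimated gene count before scaling averaged 605706 ± 194215 in E0771 and 628012 ± 208556 in MC38 (SD, n = 5 and 4; exact permutation p = 0.889, two-sided). The smallest p that 5 against 4 tumours allow is 0.0159. E0771 mouse 65 was the shallowest tumour with 315231 estimated counts, and its large factor of 2.65 brought its negative-control probes to 15.6, against 2.69 to 6.68 in the other 8 tumours. Negative probes averaged 7.19 ± 4.83 in E0771 and 5.23 ± 1.77 in MC38 (exact p = 0.619). The first principal component held 56.3% of the variance and set the E0771 tumours (-30.7 to -0.17) and MC38 mouse 10 (-11.2) apart from MC38 mice 4, 7 and 21 (31.2, 28.8 and 20.3).

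MC38 mice 4, 7 and 21 were also high in genes that a shoulder tumour is not known to use. Which genes carried the first component was not examined. A list of 25 tissue-restricted genes was drawn up for this after the values were seen, among them Mbl2, Ambp and C8b of the liver, Nefl of neurons and Rag1 of developing lymphocytes. The median of the list was 20.8, 7.27, 14.6, 10.6 and 7.45 in E0771 tumours, against 67.5, 121, 14.4 and 84.2 in MC38 tumours. MC38 mouse 10 thus lay among the E0771 tumours and the other MC38 tumours lay several times above them, although the scaled negative probes of MC38 mice 4, 7 and 21 were only 5.42 to 6.68. Of the 20 members that could be tested, 13 passed as lower in E0771, beside 11.4% of all genes. The list was chosen with these values known, and low members could pass the filter on mean level through MC38 mice 4, 7 and 21. This count is therefore a description only. The highest MC38 mean in the list was 132 (Pla2g1b), and this level divides the 85 lower genes: 36 had an MC38 mean above it and 49 below it. For the 49 the part of this shared low signal in the result was not tested. Low genes of the lists below could pass the filter in the same way.

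**Figure D1:**
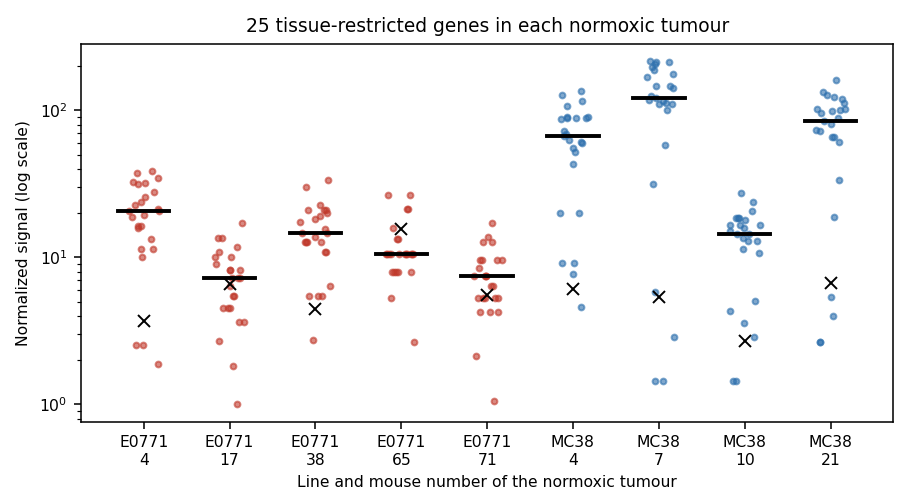
Normalized signal (log scale) of 25 tissue-restricted genes in each of the 9 normoxic tumours, E0771 in red and MC38 in blue. Each point is a gene, the bar is the median of the 25 and the cross is the mean of the negative-control probes after scaling. The medians of MC38 mice 4, 7 and 21 (67.5, 121 and 84.2) stand above those of all other tumours (7.27 to 20.8).

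MC38 mouse 10 was low in that signal, and its values are given here as a description, since they entered the calls. Of the 85 lower genes, 44 had a value in mouse 10 above all 5 E0771 tumours, and in the other 41 mouse 10 lay within the E0771 range. Over all genes tested, 14.7% had mouse 10 above all E0771 tumours, a share that cannot be set against the 44 because mouse 10 helped to choose them. Among the 36 genes of higher level, 27 had mouse 10 above all E0771 tumours, and among the 49 of low level 17 did. The same 44 genes were those in which no E0771 tumour reached any MC38 tumour, while over all genes tested 66 (8.87%) had every E0771 tumour below every MC38 tumour and 16 (2.15%) had every one above. The count of calls depended on single tumours: it was 63, 15, 43, 24 and 16 without E0771 mouse 4, 17, 38, 65 or 71, and 17, 7, 226 and 8 without MC38 mouse 4, 7, 10 or 21. Of the 92 genes, 54 passed in 2 or fewer of these 9 fits, and none changed sign in any of them. Beside the genes named below, "5 of 9 fits" gives the number of these fits in which a gene still passed. Subtracting each tumour's tissue-restricted level, a step added after seeing the data, left 28 calls (15 higher and 13 lower), of which 19 were among the 92. Values under 1 after the subtraction were set to 1, and low values shrink most on the log scale. List medians given below after this step are therefore descriptions only. Leaving out MC38 mice 4, 7 and 21 together, also added after seeing the data, left mouse 10 as the only normoxic MC38 tumour. This fit used a model of 4 groups with the hypoxic tumours (712 genes), so its spread came from the other groups. Its median difference was 0.24.

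**Figure D2:**
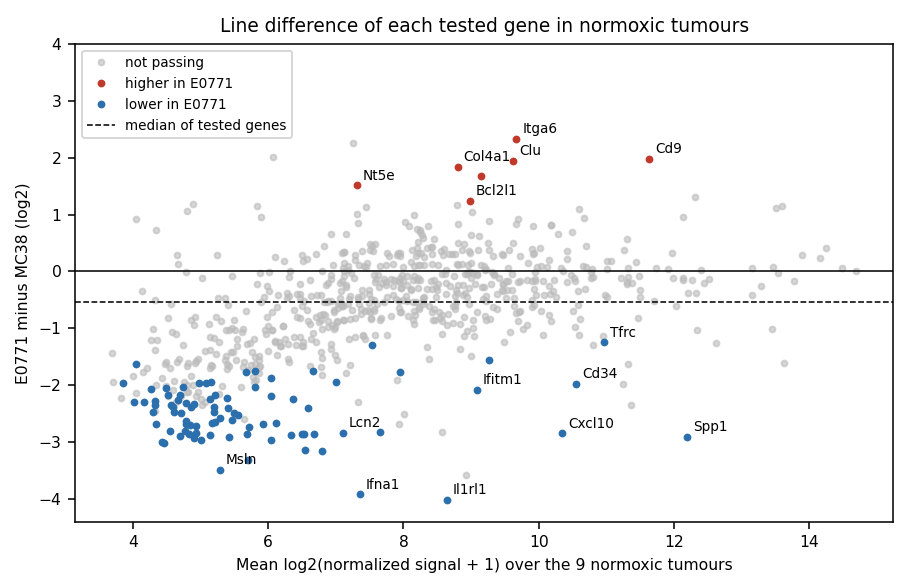
Difference between lines (E0771 minus MC38, log2) of each of the 744 tested genes against its mean log2 level over the 9 normoxic tumours. Red points are the 7 genes higher in E0771, blue points the 85 lower ones and grey points the rest; the dashed line is the median of -0.53. Most of the blue points lie at the low end of the level axis, and Spp1, Cxcl10, Cd34, Tfrc and Ifitm1 stand apart from them at higher levels.

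Osteopontin was the line difference with the smallest adjusted p. Spp1 encodes this secreted glycoprotein, which binds integrins and CD44 and is made by tumour cells and macrophages. Its signal was 2673, 1427, 1796, 2479.6 and 1501 in E0771 tumours, against 14712, 9659, 19388 and 15393 in MC38 tumours. Every E0771 tumour lay several times below every MC38 tumour, and mouse 10, low in the tissue-restricted genes, had the highest value of all. Means were 1975 ± 569.8 in E0771 and 14788 ± 3993 in MC38 (SD), and the difference was -2.91 ± 0.35 (adjusted p = 0.00198; -3.10 to -2.76 over the fits without 1 tumour). Its receptor gene Cd44 was measured at 22.7 to 65.8 in E0771 tumours and 35.2 to 150.4 in MC38 tumours and did not pass (-1.19 ± 0.53, adjusted p = 0.165).

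The IL-33 receptor gave the largest difference of any tested gene. Il1rl1 encodes ST2, which senses the alarmin IL-33 and is known from mast cells, eosinophils, type 2 lymphocytes and regulatory T cells. Its signal was 124, 44.5, 246, 181 and 78.8 in E0771 tumours, against 1429, 636, 5404 and 2505 in MC38 tumours. The groups did not overlap, and the value of MC38 mouse 10 was again the highest. The difference was -4.02 ± 0.64 (adjusted p = 0.00549). The gene of the co-receptor of ST2, Il1rap, did not follow it, with 1789, 1349, 565, 316 and 798 in E0771 tumours, against 550.5, 487, 306 and 438 in MC38 tumours (0.89 ± 0.48, adjusted p = 0.251).

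Lcn2, Vegfc and Lif, which encode secreted proteins, were lower in E0771. Lcn2 encodes lipocalin 2, which withholds iron from bacteria and is made by neutrophils and by stressed epithelium. Its signal was 52.4, 36.3, 109, 61.1 and 45.8 in E0771 tumours, against 408, 438, 371 and 424 in MC38 tumours. The MC38 values were nearly alike, so the difference was precise (-2.83 ± 0.39, adjusted p = 0.00434). Vegfc encodes the growth factor of lymphatic vessels, and its signal was 36.0, 21.8, 43.0, 61.1 and 58.6 in E0771 tumours, against 258, 377, 249.9 and 366 in MC38 tumours (-2.86 ± 0.42, adjusted p = 0.00503). Lif encodes a cytokine of the IL-6 family, and it measured 49.9, 29.1, 52.1, 50.4 and 17.0 in E0771 tumours, against 267, 372, 192 and 291 in MC38 tumours (-2.86 ± 0.45, adjusted p = 0.00549). In all 3 genes the lowest MC38 tumour was above the highest E0771 tumour.

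The enzymes Ptgs2 and Ido1 showed the same separation. Ptgs2 encodes cyclooxygenase 2, the inducible enzyme of prostaglandin synthesis, and measured 95.3, 38.1, 97.9, 71.7 and 157 in E0771 tumours, against 708, 343, 876 and 593 in MC38 tumours (-2.82 ± 0.46, adjusted p = 0.00551). Ido1 encodes indoleamine 2,3-dioxygenase, which degrades tryptophan and restrains T cells. It measured 24.0, 15.4, 17.4, 15.9 and 11.7 in E0771 tumours, against 69.0, 189, 137 and 158 in MC38 tumours, with a difference of -2.90 ± 0.46 (adjusted p = 0.00549). All E0771 values of Ido1 were 24.0 or less, and the MC38 mean of 138 was just above the highest mean of the tissue-restricted genes. The part of that signal in the Ido1 difference was not tested.

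**Figure D3:**
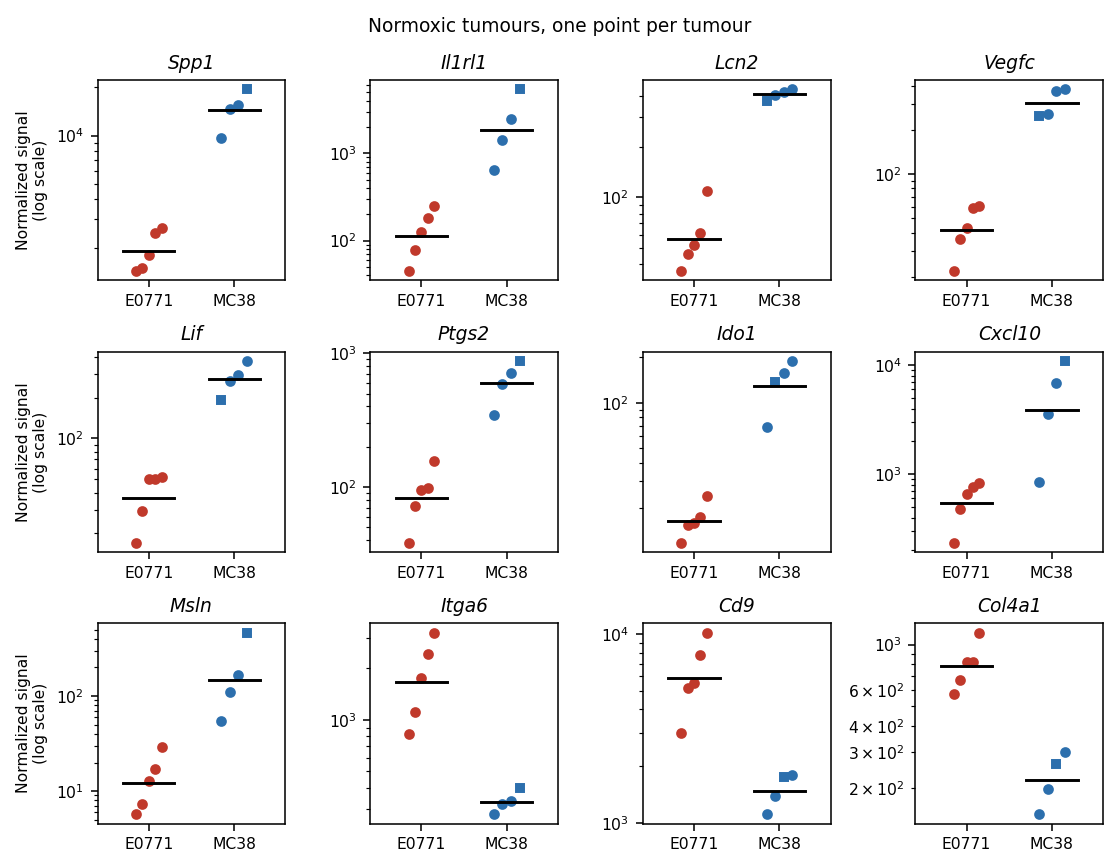
Normalized signal (log scale) of 12 genes in the normoxic tumours, 1 point per tumour, E0771 in red on the left and MC38 in blue on the right. Squares mark MC38 mouse 10 and bars the mean on the log2 scale. The 12 genes were picked from those that passed, and in all of them the points of the lines do not overlap. Of all genes tested, 8.87% had every E0771 tumour below every MC38 tumour and 2.15% had every one above. Spp1 ran from 1427 to 2673 in E0771 and from 9659 to 19388 in MC38.

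Of 19 tested genes for chemokines and growth factors that attract or feed myeloid cells, 7 passed, all lower in E0771, beside 11.4% of all genes: Cxcl1, Cxcl2, Cxcl3, Cxcl5, Cxcl15, Csf2 and Csf3. Of the 7, 5 had an MC38 mean below 132 and 3 had mouse 10 within the E0771 range. The median of the 19 was -1.54, against -0.53 over all genes, and all 19 were negative. In hypoxic tumours the median of the list was 0.06, against 0.37 over all genes. With the tissue-restricted level subtracted, its median in normoxic tumours was -1.09, against -0.04 over all genes. Promoter sequence is shown for Cxcl1, Cxcl2 and Cxcl3, together with Il6 and Cxcl10, known targets of the transcription factor NF-kB. They were picked because they had passed as lower in E0771. The list of Toll-like receptor and NF-kB genes gave 1 call of 31 tested, with a median of -0.41. A part of NF-kB in these differences was not tested. The runs read 5′ to 3′ on the strand of the gene in build GRCm38.p6, from RefSeq. Capitals mark matches, on either strand, to the NF-kB-like motif GGNNTTTCC (reverse complement GGAAANNCC), and in Cxcl10 also to the interferon-response-like motif GAAANNGAA (reverse complement TTCNNTTTC), both chosen with the expression values known.
Cxcl1 (chr5:90891135-90891294, plus strand): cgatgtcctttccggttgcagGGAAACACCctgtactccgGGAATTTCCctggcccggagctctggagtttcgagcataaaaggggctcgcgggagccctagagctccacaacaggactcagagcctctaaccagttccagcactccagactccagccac
Cxcl2 (chr5:90903789-90903948, plus strand): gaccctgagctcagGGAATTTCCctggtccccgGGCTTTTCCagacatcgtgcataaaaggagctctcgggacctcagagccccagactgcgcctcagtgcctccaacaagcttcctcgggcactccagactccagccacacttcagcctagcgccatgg
Cxcl3 (chr5:90785991-90786150, plus strand): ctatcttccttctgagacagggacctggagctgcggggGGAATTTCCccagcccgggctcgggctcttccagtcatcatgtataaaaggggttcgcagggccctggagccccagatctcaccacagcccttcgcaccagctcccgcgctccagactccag
Il6 (chr5:30013004-30013163, plus strand): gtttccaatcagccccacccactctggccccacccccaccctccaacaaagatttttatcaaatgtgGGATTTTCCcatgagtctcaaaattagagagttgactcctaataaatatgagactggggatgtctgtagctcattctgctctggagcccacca
Cxcl10 (chr5:92348840-92349139, minus strand): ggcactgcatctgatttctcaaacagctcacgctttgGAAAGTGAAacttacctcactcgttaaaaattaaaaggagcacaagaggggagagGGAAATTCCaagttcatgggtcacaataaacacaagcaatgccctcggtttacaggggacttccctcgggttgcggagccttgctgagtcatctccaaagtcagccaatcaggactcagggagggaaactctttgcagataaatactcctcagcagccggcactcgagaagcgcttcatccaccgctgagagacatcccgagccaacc
The first 4 windows hold 160 bases that end 50 bases after the gene's start, and that of Cxcl10 holds 300. Of all 32851 promoter windows of 300 bases in the table, 5.82% hold the NF-kB-like motif and 8.56% the interferon-response-like one. Cxcl1 and Cxcl2 have 2 matches each to the NF-kB-like motif and Cxcl3, Il6 and Cxcl10 have 1. Cxcl1, Cxcl2, Cxcl3 and Il6 have none to the interferon-response-like motif and Cxcl10 has 1. Overlap between the motifs did not occur in these windows. A match is a run of letters and no measured binding.

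Cxcl1 measured 117, 24.5, 39.3, 42.5 and 14.9 in E0771 tumours, against 218, 218, 322 and 379 in MC38 tumours. The lowest MC38 tumour was above the highest E0771 tumour, E0771 mouse 4 (-2.85 ± 0.56, adjusted p = 0.0157; 7 of 9 fits). Cxcl2 measured 13.9, 9.08, 19.2, 39.8 and 37.3 in E0771 tumours, against 143, 117, 93.4 and 146 in MC38 tumours (-2.52 ± 0.52, adjusted p = 0.0205; 6 of 9 fits). Cxcl3 measured 2.53, 9.08, 21.0, 18.6 and 21.3 in E0771 tumours, against 126, 60.7, 91.2 and 94.9 in MC38 tumours (-2.83 ± 0.62, adjusted p = 0.0233; 5 of 9 fits). For these 3 chemokines no E0771 tumour reached any MC38 tumour, MC38 mouse 10 included.

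Cxcl5 behaved differently within MC38. It measured 34.7, 30.0, 78.7, 31.9 and 44.7 in E0771 tumours, against 820.3, 653, 84.8 and 424 in MC38 tumours (-3.15 ± 0.64, adjusted p = 0.0189; 6 of 9 fits), so mouse 10 lay only just above the highest E0771 tumour. Without MC38 mouse 4, 7 or 21 it did not pass (-2.77, -2.88 and -3.09). Il6, an inflammatory cytokine, measured 64.4, 15.4, 42.1, 39.8 and 21.3 in E0771 tumours, against 1138, 199.5, 73.2 and 208 in MC38 tumours, with the highest value in MC38 mouse 4 (-2.87 ± 0.72, adjusted p = 0.0368; 2 of 9 fits). The chemokines Ccl2 (-0.38 ± 0.39), which attracts monocytes, and Csf1 (-0.01 ± 0.39), the growth factor of macrophages, did not pass (adjusted p = 0.567 and 0.988). Ccl2 was abundant in both lines, at 2926 to 7351 in E0771 tumours and 3319 to 8769 in MC38 tumours.

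Neutrophil genes gave 9 calls of 16 tested, all lower in E0771, beside 11.4% of all genes, with a list median of -2.12 (-1.74 after centring on the median gene). The receptors for the chemokines above were among them: Cxcr2 measured 28.4, 18.2, 38.4, 10.6 and 15.97 in E0771 tumours, against 348, 219.8, 46.7 and 151 in MC38 tumours (-2.85 ± 0.62, adjusted p = 0.0233; 3 of 9 fits), and Cxcr1 measured 2.65 to 20.2 in E0771 tumours and 22.98 to 146 in MC38 tumours (-2.99 ± 0.71). In both, MC38 mice 4, 7 and 21 were high and mouse 10 sat just above the E0771 range. The median of the tissue-restricted genes was also high in mice 4, 7 and 21. For that median, mouse 10 (14.4) lay inside the E0771 range (7.27 to 20.8). The granule genes Mpo, Elane and Ltf passed with MC38 mouse 10 inside the E0771 range, and 6 of the 9 calls had an MC38 mean below 132. S100a8, an abundant protein of neutrophils, measured 43.6, 66.3, 417, 390.3 and 85.2 in E0771 tumours, against 744, 729, 245 and 465 in MC38 tumours and did not pass (-1.90 ± 0.70, adjusted p = 0.0945). The neutrophil list summed to 1712 to 6850 in E0771 tumours and 3588 to 9027 in MC38 tumours, and the part of the tissue-restricted signal in its calls was not tested. In RNA of a whole tumour, fewer cells of a type and less RNA per cell cannot be told apart, here and for every cell type below, and a gene's source in cancer cells or host cells cannot be told apart either.

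Type 2 cytokines and their receptors gave 9 calls of 12 tested, all lower in E0771, beside 11.4% of all genes (list median -2.46, or -2.08 after centring). Beside Il1rl1 they were Il4, Il9, Il13, Il25, Il5ra, Il17rb, Il13ra1 and Il13ra2. Il4, which drives type 2 helper cells, measured 34.1, 9.08, 29.3, 15.9 and 11.7 in E0771 tumours, against 793, 227, 42.4 and 155 in MC38 tumours (-3.32 ± 0.76, adjusted p = 0.0268; 3 of 9 fits). Il13 measured 29.7, 14.5, 29.3, 21.2 and 18.1 in E0771 tumours, against 242, 276, 37.4 and 199 in MC38 tumours (-2.73 ± 0.61, adjusted p = 0.0240; 3 of 9 fits), and Il25 had its mouse 10 value of 50.3 inside the E0771 range (-2.96 ± 0.74). These cytokines were thus high in MC38 mice 4, 7 and 21, the tumours high in tissue-restricted genes. Once the tissue-restricted level was subtracted, the type 2 list had a median of -2.59, against -0.04 over all genes. Low E0771 values such as those of Il4 and Il13 shrank toward the floor of 1 in this step. The part of the shared signal in the type 2 calls was not tested.

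The signalling receptor of IL-13 held up in mouse 10. Il13ra1, a signalling chain, measured 275, 189, 819, 366 and 505 in E0771 tumours, against 1464, 1008, 973 and 1081 in MC38 tumours, with mouse 10 level with the other MC38 tumours (-1.55 ± 0.42, adjusted p = 0.0411; 2 of 9 fits). Il13ra2, a decoy receptor, measured 26.5, 14.5, 56.7, 39.8 and 25.6 in E0771 tumours, against 455, 273, 77.6 and 142 in MC38 tumours (-2.66 ± 0.59, adjusted p = 0.0234; 4 of 9 fits). Il4ra measured 444 to 1258 in E0771 tumours and 478 to 5707 in MC38 tumours and Stat6, the factor that transmits IL-4 signals, 786 to 991 in E0771 tumours and 553 to 1406 in MC38 tumours; neither passed (adjusted p = 0.343 and 0.637). Of 10 tested mast cell and eosinophil genes, 4 passed, all lower, beside 11.4% of all genes: Il1rl1, Ptgdr2, Prg2 and Il5ra. The list summed to 255 to 1197 in E0771 tumours and 2607 to 6503 in MC38 tumours. Il1rl1 alone made up 5404 of the sum of MC38 mouse 10. With the tissue-restricted level subtracted, the mast cell and eosinophil list had a median of -1.57, against -0.04 over all genes.

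Cxcl10, an interferon-induced chemokine that attracts T cells through CXCR3, measured 234, 661, 476, 759 and 832 in E0771 tumours, against 857, 3572, 10950.1 and 6899 in MC38 tumours (-2.85 ± 0.66, adjusted p = 0.0297; 4 of 9 fits). MC38 mouse 10 was the highest and MC38 mouse 4, at 857, lay just above the highest E0771 tumour. Cxcl9, another ligand of CXCR3, ran the other way without passing, at 125, 873, 1932, 3082 and 1973 in E0771 tumours, against 606, 376, 680.1 and 787 in MC38 tumours (0.83 ± 0.78, adjusted p = 0.522). Cxcl11, the third ligand, measured 32.9 to 149 in E0771 tumours and 58.3 to 549 in MC38 tumours (-1.81 ± 0.68, adjusted p = 0.0987), and the receptor gene Cxcr3 34.5 to 311 in E0771 tumours and 40.2 to 244 in MC38 tumours (0.01 ± 0.75, adjusted p = 0.995). Whether Cxcl9 and Cxcl10 differ from each other in their line difference was not tested.

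Of 27 tested genes of the type I interferon response, 4 passed, all lower in E0771, a share near the 11.4% of all genes. A negative difference was seen in 24 (list median -0.70, and -0.32 after centring, against -0.53 and -0.16 over all genes). In hypoxic tumours the list median was -0.99, against 0.37 over all genes. With the tissue-restricted level subtracted it was -0.58 in normoxic tumours, against -0.04 over all genes. Ifitm1, which hinders the entry of viruses, measured 158, 137, 408, 576 and 369 in E0771 tumours, against 2490.1, 921, 860.4 and 1078 in MC38 tumours (-2.08 ± 0.50, adjusted p = 0.0328; 4 of 9 fits). Tlr3, the sensor of double-stranded RNA, measured 97.2, 43.6, 112, 47.8 and 70.3 in E0771 tumours, against 238, 292, 229 and 327 in MC38 tumours (-1.94 ± 0.40, adjusted p = 0.0211; 5 of 9 fits). Mx2, an antiviral GTPase, measured 58.1, 53.6, 76.8, 69.0 and 40.5 in E0771 tumours, against 156, 269, 142 and 254 in MC38 tumours (-1.74 ± 0.39, adjusted p = 0.0257; 4 of 9 fits). In these 3 genes mouse 10 was above all E0771 tumours, while in the fourth, Ifi44l, it lay among them at 24.4. Members that did not pass included Isg15 (-0.70 ± 0.54) and Irf7 (0.38 ± 0.42), with adjusted p of 0.424 and 0.593.

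Interferon genes themselves were highest in MC38 mice 4, 7 and 21. Ifna1 measured 181, 47.2, 128, 15.9 and 13.8 in E0771 tumours, against 941, 1667, 181 and 1054 in MC38 tumours, the second largest difference (-3.92 ± 0.86, adjusted p = 0.0233; 3 of 9 fits), but mouse 10 exceeded the highest E0771 tumour by less than 1 unit of signal. Ifna2, Ifna4 and Ifnl2 also passed as lower, with mouse 10 within the E0771 range in each. Members of the interferon alpha family are near-identical in sequence, so signal may be shared among their probes. Ifng, the interferon of T and NK cells, measured 18.2 to 47.8 in E0771 tumours and 25.9 to 103 in MC38 tumours and did not pass (-0.85 ± 0.52, adjusted p = 0.314).

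Genes of surface proteins differed as well. Msln encodes mesothelin, a surface antigen pursued as a therapy target, and measured 5.68, 12.7, 7.32, 29.2 and 17.0 in E0771 tumours, against 55.2, 109.9, 466 and 167 in MC38 tumours (-3.48 ± 0.67, adjusted p = 0.0157; 7 of 9 fits). The highest value, 466, was that of MC38 mouse 10, and the E0771 values lay near the negative probes. Tfrc, the transferrin receptor by which dividing cells take up iron, measured 1377, 2109, 1268, 1211 and 1031 in E0771 tumours, against 2947, 2164, 4728 and 3563 in MC38 tumours (-1.25 ± 0.34, adjusted p = 0.0411; 1 of 9 fits), and its groups nearly met at 2109 and 2164. Without any 1 tumour other than MC38 mouse 10, Tfrc did not pass.

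Among markers of epithelium, Epcam was low in most tumours and Cdh1 varied widely within each line. Epcam measured 28.4, 12.7, 497, 13.3 and 9.58 in E0771 tumours, against 73.6, 121, 21.6 and 78.8 in MC38 tumours, and Cdh1, the gene of E-cadherin, measured 44.8, 19.98, 743, 29.2 and 30.9 in E0771 tumours, against 715, 207, 53.1 and 147 in MC38 tumours. Among E0771 tumours mouse 38 alone had clear signal for both, and neither gene passed (-1.02 ± 1.04 and -1.67 ± 1.03; adjusted p = 0.559 and 0.316). Muc1, a mucin of epithelia, passed as lower in E0771 at 3.63 to 16.5 in E0771 tumours and 18.7 to 59.3 in MC38 tumours (-2.29 ± 0.58, adjusted p = 0.0368; 3 of 9 fits). Signal of Epcam in most of these tumours was thus close to that of the tissue-restricted genes, while Cdh1 reached 715 in MC38 mouse 4 and 743 in E0771 mouse 38. The epithelial origin of either line was not tested.

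Endothelial genes gave 3 calls of 19, Vegfc, Cd34 and Tal1, all lower in E0771 (list median -0.85), a share near the 11.4% of all genes. Cd34, a sialomucin of vessels and progenitor cells, measured 1169, 241, 1835, 1160.2 and 608 in E0771 tumours, against 2972, 3338, 2687 and 4064 in MC38 tumours (-1.98 ± 0.52, adjusted p = 0.0393; 3 of 9 fits). The defining vessel genes gave values without a call: Cdh5 at 44.8 to 132 in E0771 tumours and 166 to 241 in MC38 tumours (-1.28 ± 0.40, adjusted p = 0.0582), Pecam1 at -0.58 ± 0.61 (0.578) and Tek at -0.38 ± 0.63 (0.744). For Cdh5 the groups did not overlap, and for Pecam1 and Tek they did. Pdgfc, a growth factor for fibroblasts, was lower in E0771 (-1.78 ± 0.52, adjusted p = 0.0468; 1 of 9 fits), with mouse 10 (251) inside the E0771 range.

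The 7 genes higher in E0771 were of moderate to high level, and in each mouse 10 lay below all 5 E0771 tumours. Itga6 led them. It encodes the alpha-6 integrin chain, which binds laminin in the basement membrane, and measured 3247, 2419, 1118, 828 and 1767 in E0771 tumours, against 279, 322, 401 and 335 in MC38 tumours (2.33 ± 0.41, adjusted p = 0.0102). The lowest E0771 value was more than that of any MC38 tumour, and the gene passed in 8 of the 9 fits without 1 tumour, failing without MC38 mouse 7. Of 14 tested integrins, Itga6 was the only one higher and Itga2b the only one lower, beside 0.941% and 11.4% of all genes. The list median was -0.06. The partner chain Itgb1 did not pass, at 4160.2 to 6961 in E0771 tumours and 4637 to 6607 in MC38 tumours (0.03 ± 0.31, 95% interval -0.65 to 0.70). Itga5, the fibronectin receptor chain, had all E0771 values above all MC38 values and missed the threshold (1.18 ± 0.36, adjusted p = 0.0523).

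Cd9 encodes a tetraspanin, a membrane organiser that associates with integrins, and measured 10221, 7752, 5177, 2997 and 5507 in E0771 tumours, against 1786, 1107, 1752 and 1391 in MC38 tumours (1.98 ± 0.39, adjusted p = 0.0157). Col4a1 encodes the collagen of basement membranes and measured 823, 821, 573, 1144 and 674 in E0771 tumours, against 301, 149, 264 and 198 in MC38 tumours (1.83 ± 0.34, adjusted p = 0.0128). Each passed in 7 of the 9 fits and failed without MC38 mouse 7 or 21. The interstitial collagens did not follow Col4a1: Col1a1 was at -0.61 ± 0.64 and Col3a1 at -1.01 ± 0.67 (adjusted p = 0.576 and 0.339).

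Genes of cell survival and stress made up the rest. Clu, the secreted chaperone clusterin, measured 1266, 2134, 1488, 966 and 1541 in E0771 tumours, against 184, 321, 740.4 and 442 in MC38 tumours (1.94 ± 0.41, adjusted p = 0.0233; 5 of 9 fits). Bcl2l1, whose main product BCL-XL blocks apoptosis, measured 1322, 665, 559.7, 865 and 530.3 in E0771 tumours, against 357, 314, 239 and 357 in MC38 tumours (1.25 ± 0.35, adjusted p = 0.0424; 1 of 9 fits). Bid, which promotes apoptosis, passed in the other direction at 82.7 to 173 in E0771 tumours and 267 to 334 in MC38 tumours (-1.28 ± 0.36, adjusted p = 0.0434; 1 of 9 fits). The other 15 tested apoptosis genes did not pass, where 12.4% of all genes tested did.

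Raet1 and Nt5e bear on T and NK cells. Raet1 names a family of ligands for the activating receptor NKG2D, whose near-identical members one probe may not separate, and measured 1754, 1407, 423, 988 and 741 in E0771 tumours, against 192, 347, 368 and 314 in MC38 tumours (1.68 ± 0.43, adjusted p = 0.0368; 2 of 9 fits). The gene of the receptor, Klrk1, was at 121 to 1038 in E0771 tumours and 103 to 276 in MC38 tumours and did not pass (0.99 ± 0.63, adjusted p = 0.333). Nt5e encodes CD73, which makes adenosine outside the cell, and measured 282, 352, 246, 133 and 317 in E0771 tumours, against 164, 94.0, 45.2 and 85.5 in MC38 tumours (1.51 ± 0.45). Its adjusted p was 0.04996, just under the threshold, E0771 mouse 65 lay below MC38 mouse 4, and it passed in none of the 9 fits without 1 tumour.

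None of 11 pan-leukocyte genes, 22 T cell genes, 19 macrophage genes or 10 MHC class II genes passed (list medians -0.05, -0.28, -0.31 and 0.63), beside 12.4% of all genes tested. Centring on the median gene moved these medians to 0.32, 0.10, 0.07 and 1.01, so the sign for T cell and macrophage genes depends on the scaling. Ptprc, the leukocyte antigen CD45, measured 263, 268, 1226, 884 and 1322 in E0771 tumours, against 1702, 442, 440.2 and 561 in MC38 tumours (-0.05 ± 0.61, 95% interval -1.38 to 1.28). The spread lay within the lines: E0771 mice 4 and 17 had the lowest values of all 9 tumours, and MC38 mouse 4 had the highest. A true difference anywhere inside that interval remains possible with these tumours.

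E0771 mice 4 and 17 also had the lowest E0771 values of the next 3 genes. Cd3e, a chain of the T cell receptor complex, measured 34.7, 67.2, 242, 406 and 323 in E0771 tumours, against 132, 136, 79.0 and 143 in MC38 tumours, and Cd8a, the coreceptor of cytotoxic T cells, 36.0, 66.3, 288, 324 and 312 in E0771 tumours, against 127, 166, 112 and 158 in MC38 tumours. Gzmk, a granzyme of memory-like cytotoxic T cells, measured 7.58, 27.2, 355, 799 and 441 in E0771 tumours, against 35.3, 21.7, 33.8 and 30.7 in MC38 tumours. E0771 mice 38, 65 and 71 thus had more Gzmk than any MC38 tumour, and E0771 mouse 4 had less, and the difference of 2.02 ± 1.17 did not pass (adjusted p = 0.287). Among 17 CD8 and cytotoxic genes 1 passed, as lower, beside 11.4% of all genes. It was Eomes, a transcription factor of effector and memory cells, at 30.9, 18.2, 51.2, 42.5 and 49.0 in E0771 tumours, against 136, 140.2, 113 and 152 in MC38 tumours (-1.87 ± 0.43, adjusted p = 0.0279, 3 of 9 fits).

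The genes of the treatment's targets did not pass, and of the related checkpoint genes only Ido1 did. Pdcd1, the gene of PD-1, measured 72.0, 84.5, 362, 412 and 508 in E0771 tumours, against 222, 292, 149 and 326 in MC38 tumours (-0.14 ± 0.62, adjusted p = 0.910). Ctla4 measured 143, 71.8, 348, 422 and 338 in E0771 tumours, against 379, 282, 63.9 and 253 in MC38 tumours (0.11 ± 0.64, adjusted p = 0.941). Cd274, the gene of the PD-1 ligand PD-L1, measured 270.2, 887, 1392, 1179 and 1948 in E0771 tumours, against 2669, 786, 1109 and 1109 in MC38 tumours (-0.42 ± 0.56, adjusted p = 0.669). In all 3 the groups overlapped, and Ido1 was the single call among 21 tested checkpoint genes, beside 12.4% of all genes tested. Lag3, Tigit and Havcr2 were at 0.19, 0.06 and -0.14, and Foxp3, the regulator of regulatory T cells, at 1.07 ± 0.69 (adjusted p = 0.335).

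Antigen presentation by MHC class II had the only list median clearly above 0, without a call. H2-Ab1 measured 1958, 4029.6, 10538, 19593 and 15694 in E0771 tumours, against 11104, 2114, 1238 and 3059.6 in MC38 tumours (1.31 ± 0.76, adjusted p = 0.287). Cd74, the invariant chain that escorts class II molecules, measured 5044, 8194, 24672, 33597 and 35036 in E0771 tumours, against 26988, 5199, 3462 and 6984 in MC38 tumours (1.11 ± 0.73, adjusted p = 0.339). E0771 mice 38, 65 and 71 and MC38 mouse 4 were high in both genes, the same 4 tumours as in Ptprc. Among 15 MHC class I genes, only H2-Q1 passed, as lower, beside 11.4% of all genes, with mouse 10 (21.6) inside the E0771 range. H2-K1 (-0.41 ± 0.45) and H2-D1 (0.29 ± 0.41) did not pass. H2 genes are close in sequence and their probes may share signal.

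Arg1, Chil3 and Cd163, genes of alternatively activated macrophages, were highest in MC38 mouse 4. Arg1, arginase 1, measured 211, 979.9, 4071, 1579.6 and 2622 in E0771 tumours, against 53233, 3969, 3107 and 2734 in MC38 tumours. Chil3, a chitinase-like protein, measured 242, 76.3, 159, 297 and 119 in E0771 tumours, against 44286, 1258, 636 and 378 in MC38 tumours, and Cd163, a scavenger receptor, 251, 58.1, 253, 239 and 114 in E0771 tumours, against 12771, 1032, 374 and 333 in MC38 tumours. Mouse 4 exceeded every other tumour in these genes by an order of magnitude, and none passed (adjusted p = 0.139, 0.0582 and 0.0723). In Chil3 and Cd163 every E0771 tumour lay below every MC38 tumour, as in 8.87% of all genes, while in Arg1 the groups overlapped. Without mouse 4 the differences of Arg1 and Cd163 were -1.33 and -1.66 (adjusted p = 0.326 and 0.112). The single call among the 13 tested genes of the list, beside 12.4% of all genes tested, was Cd209e. Its difference was -3.13 ± 0.92 (adjusted p = 0.0470, 2 of 9 fits), with 1973 in MC38 mouse 4. For Csf1r, which marks macrophages as a class, the difference was -0.41 ± 0.68 (0.749).

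Of 28 genes of general interest, Spp1, Msln and Cxcl10 passed, all lower in E0771, and 25 did not, a share near the 11.4% of all genes. Vegfa, the hypoxia-inducible growth factor of vessels, measured 309, 501, 324, 220.3 and 498 in E0771 tumours, against 1388, 730.1, 455 and 616 in MC38 tumours (-1.04 ± 0.40, adjusted p = 0.106), and Hif1a, the hypoxia-inducible factor, 2801 to 4928 in E0771 tumours and 2226 to 8261 in MC38 tumours (0.06 ± 0.42, adjusted p = 0.9497). Tgfb1, a suppressive growth factor, was at 0.81 ± 0.50, Nos2 at -0.97 ± 0.53, Gzmb at -0.52 ± 0.60 and Prf1 at -0.80 ± 0.52. Il10, Mrc1, Cd4 and Itgam were at -1.30, -1.62, -0.56 and -0.46, all with adjusted p above 0.10.

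B cell and complement genes gave calls of low level only. Of 19 tested B cell genes 4 passed, all lower in E0771, beside 11.4% of all genes, among them Fcer2a and Igll1, with a list median of -1.84. All 4 had an MC38 mean below 132, and Fcer2a, the low-affinity IgE receptor of B cells, measured 19.6, 9.08, 16.5, 7.96 and 7.45 in E0771 tumours, against 87.4, 172, 17.2 and 115 in MC38 tumours. The list summed to 481 to 1572 in E0771 tumours and 651 to 3545 in MC38 tumours, with mouse 10 at the low end. Of 27 tested complement genes 6 passed, all lower, beside the same 11.4% (Mbl2, Masp2, C8b, C8g, Cfi and Hc), all below 132 and 4 of them members of the tissue-restricted list. The abundant complement genes C3 (-0.32 ± 0.71), C1qa (0.04 ± 0.52) and C1qb (-0.13 ± 0.57) did not pass. Once the tissue-restricted level was subtracted, the B cell list had a median of 0.04 and the complement list of -0.30.

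**Figure D4:**
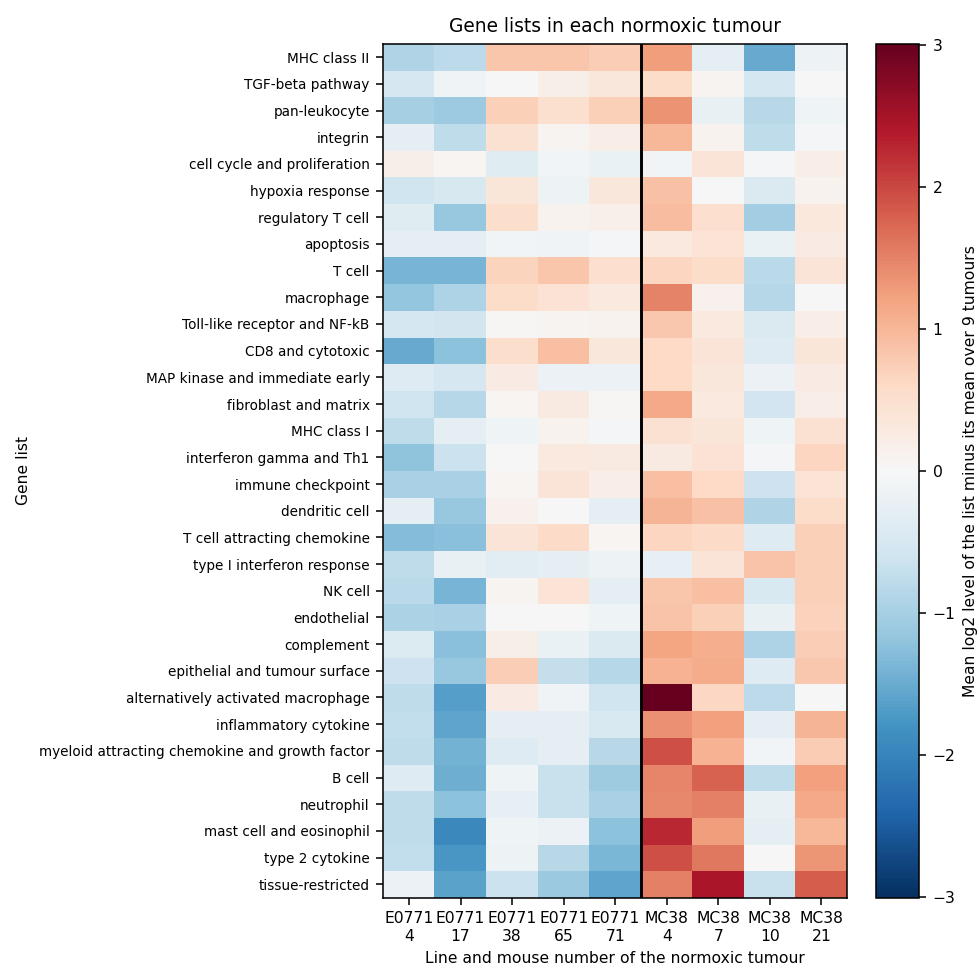
Mean log2 level of each gene list in each normoxic tumour minus the list's mean over the 9 tumours (colour; red is above and blue below), E0771 tumours left of the line and MC38 tumours right of it. Lists run from the highest to the lowest difference between lines. The lower rows, from B cell genes to tissue-restricted genes, are red in MC38 mice 4, 7 and 21 and not in mouse 10, and leukocyte rows are blue in E0771 mice 4 and 17.

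The hypoxic tumours repeat the comparison of lines in other animals. There, 56 of 712 tested genes passed (7.87%), 32 higher and 24 lower in E0771, and the median gene was at 0.37. Of the 92 genes called in normoxic tumours 82 could be tested in hypoxic ones; 55 had the same sign, 22 of these passed there, and none passed with the opposite sign. The same sign held for 52.1% of all 712 genes, and the correlation of the differences across genes was 0.48, a description only since genes of 1 tumour are not independent. The fit over all 16 tumours shares its estimate of spread between the 2 contrasts, but no tumour.

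The genes divided by level here too. All 7 genes higher in normoxic E0771 were also positive in hypoxic tumours and 6 of them passed. Of the 36 lower genes with an MC38 mean above the tissue-restricted level, 29 kept their sign and 16 passed (median -2.70 in normoxic and -1.45 in hypoxic tumours). Of the 39 tested genes below that level, 19 kept their sign and 0 passed (median -2.38 and 0.05), and the scaled negative probes of hypoxic E0771 mice 12 and 22 were 17.4 and 24.6.

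Spp1 measured 483, 880.0 and 1563 in hypoxic E0771 tumours, against 20164, 8364, 18805 and 12455 in hypoxic MC38 tumours (-4.01 ± 0.42, adjusted p = 2.0e-05). Il1rl1 measured 47.9, 243 and 55.5 in hypoxic E0771 tumours, against 3891, 3055, 4583 and 2894 in hypoxic MC38 tumours (-5.34 ± 0.69, adjusted p = 0.000123), and Msln 15.96, 17.6 and 5.4 in hypoxic E0771 tumours, against 444, 668, 427 and 375 in hypoxic MC38 tumours (-5.21 ± 0.67, adjusted p = 0.000123). The lines did not overlap in any of these 3 genes. Itga6 measured 1249.7, 1478 and 2397 in hypoxic E0771 tumours, against 453, 243, 385 and 297 in hypoxic MC38 tumours (2.29 ± 0.42, adjusted p = 0.00285), again with every E0771 tumour higher. Lcn2, Vegfc, Lif and Ido1 passed as lower in hypoxic E0771 tumours, and Ptgs2 had -2.72 ± 0.86 (adjusted p = 0.0647). Cxcl5 (-0.28 ± 0.67) and Il4 (0.04 ± 0.84) did not pass there.

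The difference between the normoxic and the hypoxic line difference was itself tested. No gene of 712 passed (0%; limma), 133 had an unadjusted p under 0.05, and the smallest adjusted p was 0.205. Without MC38 mouse 10, 132 genes passed, all with a more negative line difference in normoxic tumours, so the result rests on that tumour. The genes with the smallest p were Nod2, Irak2, Hspb2, St6gal1 and Il9. Nod2, a sensor of bacterial peptides, had an interaction of -2.40 ± 0.67, Irak2, a signalling kinase of Toll-like receptors, -2.35 ± 0.67, and St6gal1, a sialyltransferase, -2.58 ± 0.75. Their adjusted p was 0.205 in each case, as for Hspb2 (-3.20 ± 0.93) and Il9 (-3.01 ± 0.88). In normoxic tumours Nod2, Irak2 and St6gal1 did not pass (-1.29, 0.41 and 0.44).

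**Figure D5:**
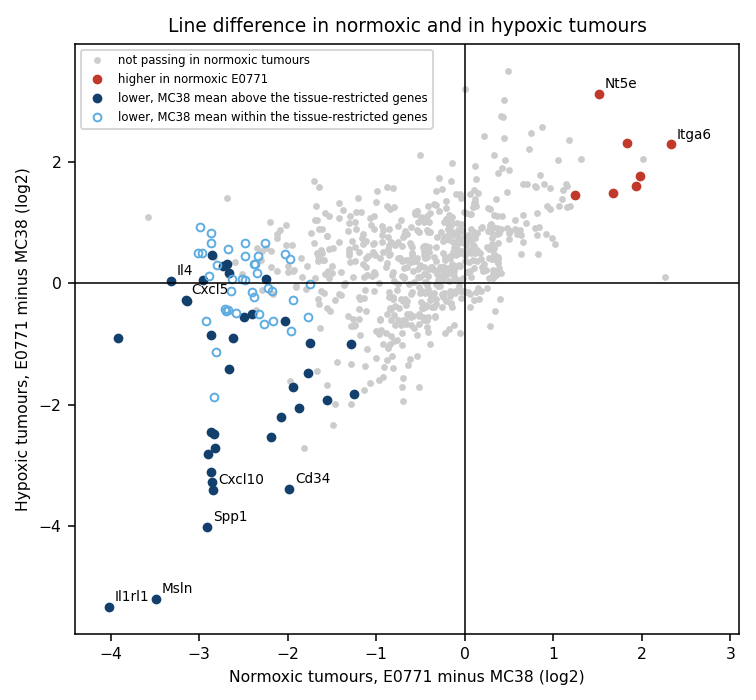
Line difference (E0771 minus MC38, log2) in normoxic tumours (x axis) and in hypoxic tumours (y axis) for the 712 genes tested in both. Red points are the genes higher in normoxic E0771, dark blue points lower genes whose MC38 mean lay above the tissue-restricted level of 132, open circles lower genes below it and grey points the rest. Il1rl1, Msln and Spp1 lie far down on both axes, and the open circles spread around 0 on the y axis (median 0.05).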

How the data were processed

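The deposited values are a normalized signal on a linear scale; for the authors' own steps, software is not given in the sources used here. Inspection of the values shows whole counts times 1 factor per tumour that gives 20 housekeeping genes the same geometric mean, with values under 1 raised to 1; control probes were unscaled. All differences are therefore relative to those genes. No label used names a cartridge or run date.

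Of 770 genes, 744 had a mean of at least 16.9 over the 9 normoxic tumours (mean plus 2 SD of the scaled negative probes) and were tested with limma 3.58.1 (R 4.3.3; lmFit, eBayes with trend) on log2(value + 1), which understates differences of low genes. P-values were Benjamini-Hochberg adjusted over all tested genes, threshold 0.05. Hypoxic tumours and the interaction came from a 4-group model over 16 tumours (mean of at least 24.0, 712 genes). The fit was tested on simulated data. Technical values were compared by exact permutation (5 compared). The comparison, the members and the gene lists were chosen with earlier results of these data known. Named genes are up to 12 with the largest difference each way among those called, the 2 highest and 2 lowest of each list, the genes of general interest, the 5 of smallest interaction p, and further list members where a sentence needs them; the tissue-restricted genes, Il1rap, Gpr44, Ifna2, Ifna4 and Ifnl2 were chosen after their values were seen. Names were matched to RefSeq (GRCm38.p6): 756 by symbol, 8 by synonym, 6 unmatched. Some genes are not reported here.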

Additional observations from a re-analysis of the deposited data

Results flagged for a closer look

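Among the genes named by the rule and the technical values, 290 groups of 4 or 5 tumours were examined for 1 value far from the others. In all, 13 were found, a share no higher than the about 1 in 20 that chance gives. They are listed as a description only. In MC38 mouse 4, Arg1 was at 53233 (2734 to 3969 in the other MC38 tumours), Clec7a at 1901 (314 to 335), Hif1a at 8261 (2226 to 2701), Itgax at 339 (43.1 to 53.4) and Ms4a2 at 170.2 (10.7 to 12.9), all above the others. In the same tumour Klra4 was at 73.6 (182 to 199.7) and Nup107, the gene of a nuclear pore protein, at 293 (528 to 593), both below. In MC38 mouse 10, Cd2 was at 28.7 (164 to 221), Havcr2 at 199 (328 to 361), Il18 at 82.6 (233 to 287) and Irak1 at 161 (247 to 267), all below. In E0771 mouse 65, Stat6 was at 786 (934 to 991), and in E0771 mouse 38, Epcam was at 497 (9.58 to 28.4).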

How the results depend on the processing

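The median difference over all genes was negative under every setting run except in the fit without MC38 mice 4, 7 and 21, added after seeing the data, where it was 0.24 and 9 genes passed. Beside the 92 calls reported, 21 genes passed after centring on the pan-leukocyte genes (none higher), 33 with a filter at a mean of 50, 317 with array quality weights, 29 with voom on the estimated counts and 157 at an adjusted p under 0.10. Of settings added after seeing the data, subtracting the tissue-restricted level gave 28 and a filter at a mean of 200 gave 8 (4 higher and 4 lower). Leaving out 1 tumour gave 7 to 226 calls for the line difference and 0 to 132 for the interaction, the highest without MC38 mouse 10. Under the subtraction the differences of Cdk1 (2.41, adjusted p = 0.0156, against -0.85) and Elk1 (0.026, adjusted p = 0.967, against -2.06) turned. The cause of these changes was not tested, apart from the fewer genes or tumours that a filter or an omission leaves. Count models on recovered whole counts were planned and not run, since whole counts for every row were not established. No paired analysis was possible because the lines share fewer than 2 mouse numbers among normoxic tumours. Precision is limited by 5 and 4 tumours, with a median standard error of 0.54, and for low genes by the negative probes.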

Other observations

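Cfd, the gene of the adipocyte-rich complement factor D, measured 1994, 41.8, 1025, 98.2 and 309 in E0771 tumours, against 78.2, 136, 15.1 and 93.5 in MC38 tumours, the second most positive difference of all tested genes, without passing (2.26 ± 1.06, adjusted p = 0.180). The gene of the prostaglandin D2 receptor is on the panel under both of its names. Ptgdr2 measured 20.8, 5.45, 17.4, 21.2 and 5.32 in E0771 tumours, against 149, 227, 23.7 and 122.9 in MC38 tumours, and Gpr44 measured 18.9, 10.9, 18.3, 18.6 and 2.13 in E0771 tumours, against 93.5, 124, 10.8 and 93.5 in MC38 tumours.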
